A study of Homo sapiens with 36 samples.

Results

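Mitochondrial ribosomal protein genes were followed in 2 human cell lines exposed to excess copper. The genes were chosen by name: every annotated symbol that starts with MRPL (large subunit) or MRPS (small subunit), with pseudogenes and antisense transcripts left out. A gene entered if a probe was detected above background (detection p below 0.01) on at least 2 of 36 arrays, and its probe of highest mean signal was used. All 76 such genes passed, 48 of the large and 28 of the small subunit by symbol, out of 14678 genes tested. MRPS36 is annotated under its present name KGD4 and so falls outside the 76.

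HCT116 is a line from a human colorectal carcinoma, and BEAS-2B is an immortalized line from human bronchial epithelium. HCT116 cells received 1400 µM and BEAS-2B cells 800 µM copper sulphate in DMEM, so line and dose cannot be told apart. In each line RNA was hybridised to 10 copper arrays, 2 at each of 2, 4, 6, 12 and 18 h, and to 8 untreated arrays, with pairs at 0 and 6 h and a single array at 2, 4, 12 and 18 h. The labels do not say that replicate arrays came from separate cultures, so p-values measure the spread between these arrays, which may be technical.

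Mitochondria keep ribosomes of their own, which translate the few messages encoded by mitochondrial DNA, all of them for inner membrane proteins of the respiratory chain and ATP synthase. The ribosomal RNAs come from mitochondrial DNA, while every protein of the particle is encoded in the nucleus, made in the cytosol and imported. Many of the proteins have a bacterial counterpart, and others exist in mitochondria alone.

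Values below are log2 signals after background correction and quantile normalization of the arrays. A copper effect is the mean log2 signal with copper minus the mean without it at that time, averaged over the 5 times unless a time is named, and ± is its standard error. A gene is said to have risen or fallen where the p of the limma model, adjusted over all 14678 genes by the Benjamini-Hochberg method, was below 0.05. Each average rests on 10 copper and 6 untreated arrays. Since arrays are scaled to each other, a level is relative to the other transcripts on the array, and fewer cells cannot be told apart from less RNA per cell.

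Several epithelial and mesenchymal genes differed between the lines. All 5 epithelial markers were detected on every untreated HCT116 array, with EPCAM, an epithelial adhesion protein, at 13.06 against 5.40 in untreated BEAS-2B cells. CDH1 and KRT19, an epithelial cadherin and a keratin, were detected on 8 of 8 untreated HCT116 arrays and on 0 of 8 untreated BEAS-2B arrays. EPCAM and the keratins KRT8 and KRT18 were detected on 8 of 8 arrays of BEAS-2B too, with KRT8 at 12.46 in HCT116 and 10.90 in BEAS-2B and KRT18 at 6.98 and 6.38. KRT15, the 1 of 4 basal airway markers among the genes tested, was detected on 8 of 8 arrays of HCT116 and on 0 of 8 of BEAS-2B. VIM, an intermediate filament protein of mesenchymal cells, was at 7.45 in HCT116 and at 13.85 in BEAS-2B, which is labelled bronchial. The mesenchymal markers COL1A1, SPARC, CDH2 and FN1 were at 5.06, 4.47, 4.52 and 4.53 in HCT116. In BEAS-2B they were at 12.58, 12.55, 12.84 and 7.00, while the collagen gene COL1A2 was at 4.96 in HCT116 and 4.87 in BEAS-2B. The colon marker CDX2 was detected on 8 of 8 untreated HCT116 arrays and on 1 of 8 in BEAS-2B. CDX1, also of colon, was detected on 0 of 8 in each line. On the copper arrays of 12 and 18 h 32.2 to 35.7% of all probes were detected in HCT116, against 39.6 to 42.4% on untreated arrays. In BEAS-2B the shares were 36.2 to 37.9% on the copper arrays of 12 and 18 h and 41.4 to 43.2% on untreated arrays.

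Promoters are shown for the genes at the ends of the response, so that those of the 5 deepest falls, by the sum of the 2 lines' averages, can be set beside that of the 1 gene that rose in both lines. The table of RefSeq promoters (build GRCh38.p14, 250 bases before to 50 after the start of transcription) held 68 of the 76 genes, 41 of the large and 27 of the small subunit, and 11509 of all genes tested. Capitals mark exact matches, on either strand, to core motifs of 3 factors known to act on genes for mitochondrial proteins: CCGGAAG for ETS factors such as GABP, AAGATGGC for YY1 and the palindromic consensus of NRF1. TGACGTCA, a CRE site bound by CREB, and CACGTG, an E-box bound by MYC, were searched likewise and have no match in the promoters shown. None of the motifs contains another. The promoters lie at chr20:3045802-3046101 (MRPS26, plus strand), chr19:17292323-17292622 (MRPL34, plus strand), chr11:6683291-6683590 (MRPL17, minus strand), chr9:135500432-135500731 (MRPS2, plus strand), chr19:38930694-38930993 (MRPS12, plus strand) and chr3:179604589-179604888 (MRPL47, minus strand), and each is written 5′ to 3′ along its gene.
MRPS26: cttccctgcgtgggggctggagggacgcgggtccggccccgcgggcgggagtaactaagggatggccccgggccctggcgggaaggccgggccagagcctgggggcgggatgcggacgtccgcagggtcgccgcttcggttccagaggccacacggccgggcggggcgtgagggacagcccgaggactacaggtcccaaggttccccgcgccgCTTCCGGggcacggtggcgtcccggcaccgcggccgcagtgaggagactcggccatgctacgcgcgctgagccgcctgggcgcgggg
MRPL34: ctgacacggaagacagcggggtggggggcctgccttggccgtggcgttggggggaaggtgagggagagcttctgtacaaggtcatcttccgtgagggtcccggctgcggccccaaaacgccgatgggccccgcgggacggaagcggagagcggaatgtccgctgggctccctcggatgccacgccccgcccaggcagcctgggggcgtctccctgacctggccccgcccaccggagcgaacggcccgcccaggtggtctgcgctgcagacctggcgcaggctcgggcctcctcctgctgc
MRPL17: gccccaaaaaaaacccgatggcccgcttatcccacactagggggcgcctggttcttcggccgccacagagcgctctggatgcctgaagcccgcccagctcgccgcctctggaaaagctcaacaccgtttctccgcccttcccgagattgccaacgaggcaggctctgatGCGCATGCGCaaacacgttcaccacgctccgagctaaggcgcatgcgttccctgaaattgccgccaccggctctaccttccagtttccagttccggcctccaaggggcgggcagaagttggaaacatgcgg
MRPS2: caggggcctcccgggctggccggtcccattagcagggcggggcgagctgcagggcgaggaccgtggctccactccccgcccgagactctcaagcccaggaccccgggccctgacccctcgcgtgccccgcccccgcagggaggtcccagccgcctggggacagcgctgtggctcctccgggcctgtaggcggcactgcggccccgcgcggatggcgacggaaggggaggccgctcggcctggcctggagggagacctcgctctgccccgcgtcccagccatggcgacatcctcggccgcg
MRPS12: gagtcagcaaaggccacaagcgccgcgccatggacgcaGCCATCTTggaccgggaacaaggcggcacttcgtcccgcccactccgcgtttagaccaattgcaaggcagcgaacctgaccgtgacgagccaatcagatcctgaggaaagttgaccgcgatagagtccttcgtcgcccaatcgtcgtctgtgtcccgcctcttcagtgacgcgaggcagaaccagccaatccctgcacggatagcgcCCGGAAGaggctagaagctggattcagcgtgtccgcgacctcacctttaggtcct
MRPL47: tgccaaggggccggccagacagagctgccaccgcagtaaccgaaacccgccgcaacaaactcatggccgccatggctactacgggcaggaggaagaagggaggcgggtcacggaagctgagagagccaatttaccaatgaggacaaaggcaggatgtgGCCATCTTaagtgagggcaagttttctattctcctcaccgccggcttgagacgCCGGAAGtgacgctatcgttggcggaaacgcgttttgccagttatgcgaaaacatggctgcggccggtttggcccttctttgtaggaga

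The MRPS26 promoter holds the ETS motif, and that of MRPL17 holds the full NRF1 motif. No exact match lies in the windows of MRPL34 and MRPS2, nor in those of MRPL41 and MRPL44, the next deepest falls. MRPS12 and MRPL47, the gene that rose, both carry an ETS and a YY1 match. Over the 68 promoters 41.2% held the ETS motif, against 17.0% of the promoters of all genes tested. The YY1 motif was in 29.4% of the members' promoters and in 4.83% of all. Matches to the NRF1 motif were rare, at 1.47% against 2.1%, the E-box was at 8.82% against 9.52%, and the CRE site was in 0 of 68 against 3.06%. The 44 genes that fell in both lines and the 24 other members carried the ETS motif at 43.2% and 37.5%, and the YY1 motif at 27.3% and 33.3%. These are counts of letters in a window and do not show a bound factor.

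Most of the 76 genes were lower with copper in both lines. In HCT116 50 fell, 3 rose and 23 did not pass the test, where 29.1% of all genes tested fell and 17.3% rose. In BEAS-2B 63 fell, 1 rose and 12 did not pass, where 30.3% of all genes fell and 18.5% rose. The members are well expressed, with a median untreated level of 10.23 in HCT116 and 9.81 in BEAS-2B, against 6.51 and 6.53 over all genes. Among the 6751 genes detected on all 36 arrays, 36.9% fell in HCT116 and 42.1% in BEAS-2B. The median copper effect of the members was -0.34 in HCT116 and -0.48 in BEAS-2B, beside -0.04 over all genes in each line. That median over all genes, and the shares of all genes given below, also take in genes not detected on every array. With arrays set to a common median in place of quantile normalization, 45 members fell in HCT116 and 51 in BEAS-2B.

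Genes of both subunits fell. In HCT116 27 of 48 large subunit genes fell and 3 rose, with a median of -0.33, and 23 of 28 small subunit genes fell and 0 rose, with a median of -0.34. In BEAS-2B 38 large subunit genes fell and 1 rose, with a median of -0.52, and 25 small subunit genes fell and 0 rose, with a median of -0.45. At an unadjusted p below 0.05, 4 of all 76 members rose in HCT116 and 2 in BEAS-2B. The small subunit proteins of mitochondria alone fell in 9 of 10 cases in HCT116 and in 10 of 10 in BEAS-2B. Those with a bacterial counterpart fell in 13 of 16 and 14 of 16 cases. For the large subunit, 11 of 19 mitochondria-only genes fell in HCT116 and 16 of 19 in BEAS-2B, beside 16 of 29 and 22 of 29 with a bacterial counterpart. The split follows a fixed list, in which MRPS18B and MRPL58 count as mitochondria-only.

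**Figure D1:**
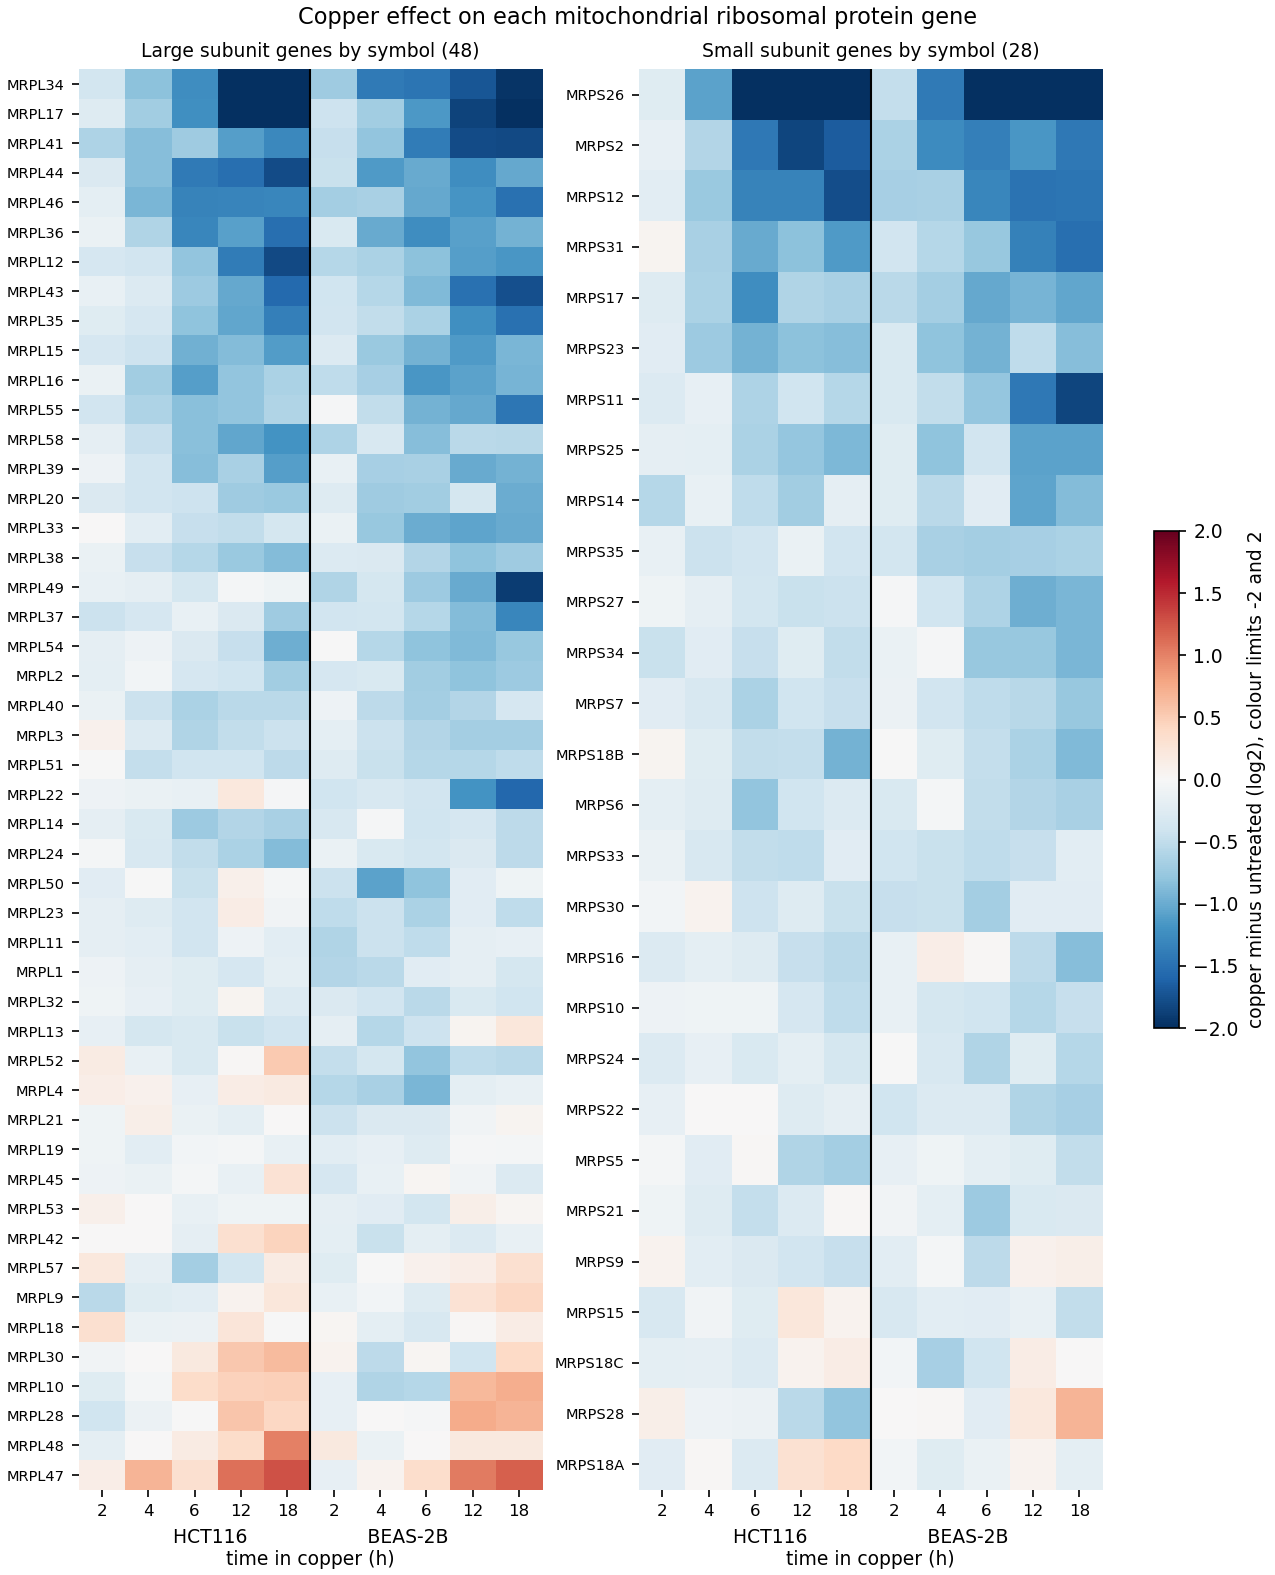
Copper effect (copper minus time-matched untreated arrays, log2, blue for lower and red for higher) of 48 large and 28 small subunit genes, in rows ordered by the sum of the 2 lines' averages, at 5 times in HCT116 (left of each panel) and BEAS-2B (right). MRPS26 and MRPL34 stand at the blue end and MRPL47 at the red end, and colours are cut at -2 and 2.

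The deepest fall of all members was that of MRPS26 (Entrez 64949, chromosome 20), a small subunit protein found in mitochondria alone. In HCT116 its 2 copper arrays read 10.23 and 10.30 at 2 h, 9.37 and 9.53 at 4 h, 8.45 and 8.58 at 6 h, 7.49 and 7.68 at 12 h, and 6.77 and 6.57 at 18 h, against 10.04 to 10.73 (median 10.51) on the 8 untreated arrays. All copper arrays from 4 h on lay below every untreated array, and those of 2 h lay within the untreated range. In BEAS-2B its copper arrays read 9.39 and 9.25 at 2 h, 8.49 and 8.40 at 4 h, 7.80 and 7.89 at 6 h, 7.56 and 7.35 at 12 h, and 7.33 and 7.17 at 18 h, against 9.79 to 10.05 (median 9.85) on untreated arrays. There all 10 copper arrays lay below all 8 untreated arrays. The average effect was -1.89 ± 0.07 in HCT116 (adjusted p = 8.6e-14) and -1.82 ± 0.07 in BEAS-2B (adjusted p = 1.0e-13), and at 18 h it reached -3.37 and -2.67.

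MRPL34 (Entrez 64981, chromosome 19), the counterpart of bacterial ribosomal protein L34, came next. Its copper arrays in HCT116 ran from 8.02 to 9.96 (median 8.91), all below the untreated 10.01 to 10.54 (median 10.25). In BEAS-2B they ran from 6.95 to 8.07 (median 7.52), again all below the untreated 8.61 to 9.19 (median 9.02). The average effects were -1.39 ± 0.10 (adjusted p = 3.0e-09) and -1.45 ± 0.10 (adjusted p = 1.5e-09). The effects of the 2 lines differed by 0.06 ± 0.15 (adjusted p = 0.82), from untreated levels that differed by 1.37.

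MRPL17 (Entrez 63875, chromosome 11) is the counterpart of bacterial L17, which lies by the exit of the nascent chain. In HCT116 the copper arrays read 10.98 and 10.90 at 2 h and 8.58 and 9.14 at 18 h, against 10.96 to 11.21 (median 11.11) without copper. Only an array of 2 h reached into the untreated range. In BEAS-2B the copper arrays ran from 8.90 to 10.66 (median 10.05), below the untreated 10.75 to 11.21 (median 11.05). The average effect was -1.31 ± 0.08 in HCT116 (adjusted p = 2.0e-10) and -1.25 ± 0.08 in BEAS-2B (adjusted p = 3.4e-10).

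MRPS12 (Entrez 6183, chromosome 19) is the counterpart of bacterial S12, a protein of the decoding centre. Copper arrays of HCT116 ran from 10.52 to 12.32 (median 11.01) and untreated arrays from 12.25 to 12.43 (median 12.34), with an overlap from a 2 h array. In BEAS-2B copper arrays ran from 9.91 to 11.27 (median 10.63), below the untreated 11.43 to 11.99 (median 11.69). Average effects were -1.08 ± 0.06 (adjusted p = 1.0e-10) in HCT116 and -1.11 ± 0.06 (adjusted p = 6.2e-11) in BEAS-2B. Among its other probes the next brightest gave -1.05 and -0.92, while the dimmest, with a mean level of 4.80, gave -0.01 and 0.09.

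**Figure D2:**
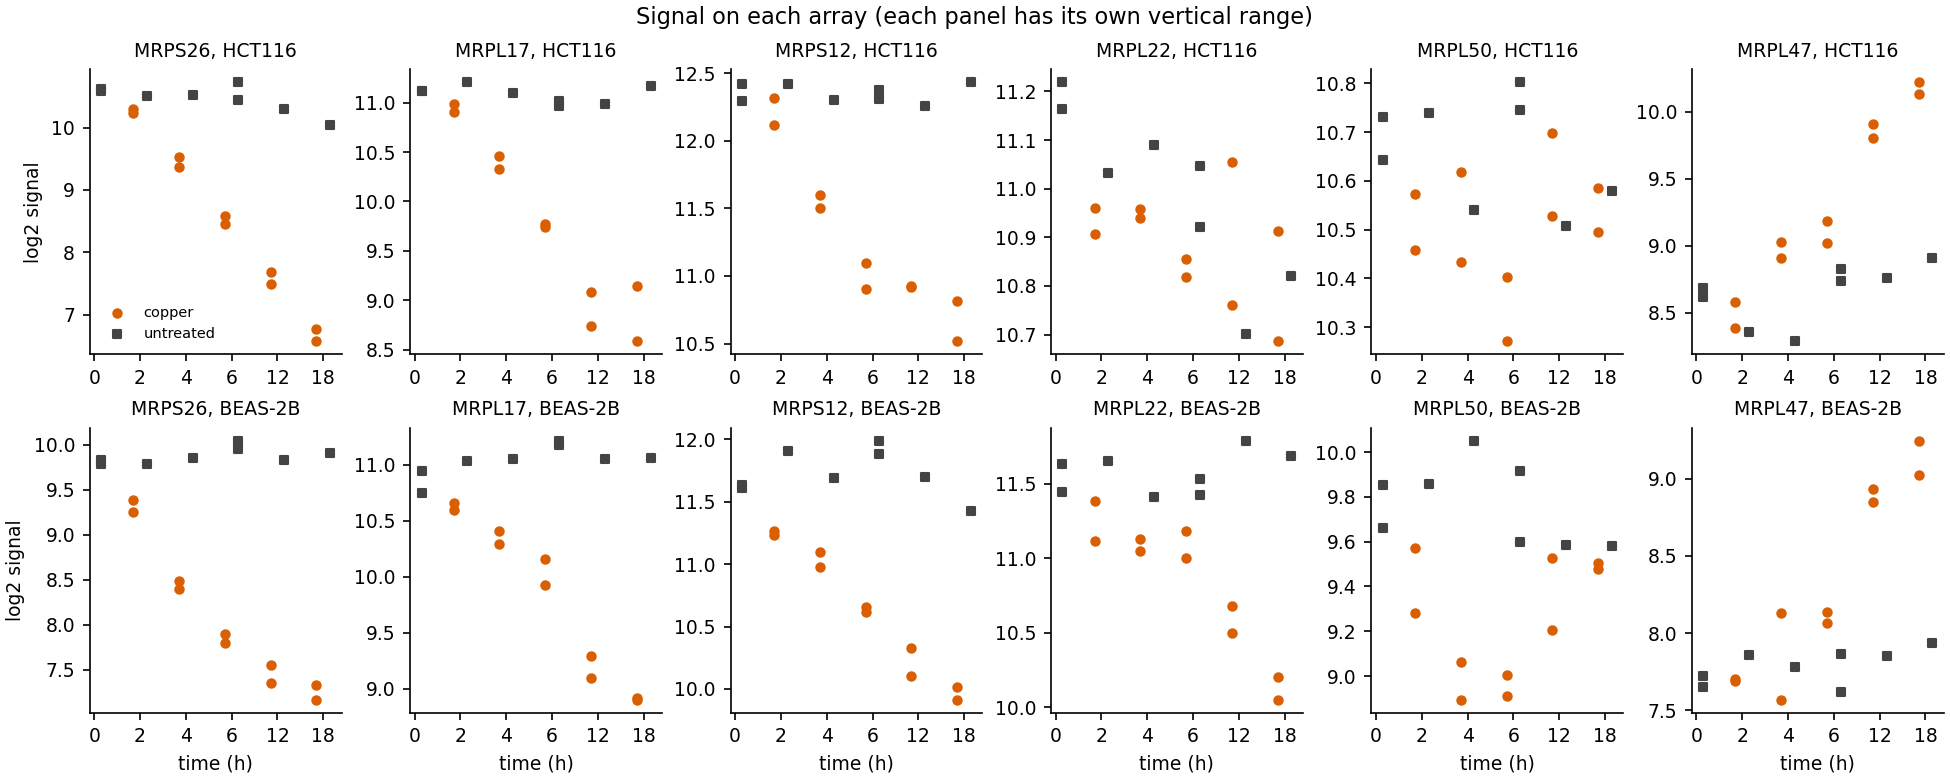
Log2 signal on each array by time for 6 genes, HCT116 in the upper row and BEAS-2B in the lower, with copper arrays as orange circles and untreated arrays as dark squares. MRPS26, MRPL17 and MRPS12 sink with time in copper in both lines and MRPL47 climbs, while MRPL22 sinks late in BEAS-2B and MRPL50 is lowest at 4 and 6 h there.

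Other members of the large subunit with falls of this order were MRPL41, MRPL44, MRPL46 and MRPL43, which have no bacterial counterpart, and MRPL36 and MRPL12, which have one. MRPL41 averaged -0.91 ± 0.10 in HCT116 and -1.25 ± 0.10 in BEAS-2B. For MRPL44, which has the fold of an RNase III enzyme, the values were -1.17 ± 0.07 and -0.97 ± 0.07. MRPL46 averaged -1.01 ± 0.07 in both lines, and MRPL43 -0.74 ± 0.07 and -1.02 ± 0.07. MRPL36, the counterpart of bacterial L36, averaged -0.93 ± 0.06 and -0.92 ± 0.06. MRPS2, the counterpart of bacterial S2, averaged -1.14 ± 0.09 in HCT116 and -1.17 ± 0.09 in BEAS-2B. MRPL12, the counterpart of the L7/L12 stalk protein that receives translation factors, averaged -0.94 ± 0.08 and -0.86 ± 0.08. MRPL58, a release factor built into the large subunit, averaged -0.74 ± 0.09 and -0.58 ± 0.09. The adjusted p of each of these effects was 1.5e-05 or lower.

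Averaged over all times, 7 members in HCT116 and 8 in BEAS-2B fell past 2-fold, where 5.12% and 4.57% of all genes did. Averaged over 12 and 18 h, 13 members fell past 2-fold in HCT116 (10 large and 3 small subunit genes) and 21 in BEAS-2B (15 large and 6 small), where 13.8% and 13.9% of all genes did. The other members that fell late did so by less than 2-fold.

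All 10 copper arrays lay below all 8 untreated arrays for 8 members in HCT116 and for 34 in BEAS-2B, while 2.08% and 6.98% of all genes showed this pattern. The 4 copper arrays of 12 and 18 h lay below every untreated array for 37 members in HCT116 and 51 in BEAS-2B, against 22% and 26.3% of all genes. They lay above every untreated array for 6 and 3 members, against 12.8% and 15%.

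Few members had fallen at 2 h and most had by 6 h in BEAS-2B, while in HCT116 the count at 6 h was close to those that followed. In HCT116 0 members passed the test at 2 h, where 0.136% of all genes fell. At an unadjusted p below 0.05 4 fell and 1 rose at that time. By 4 h 13 had fallen (5.43% of all genes), by 6 h 37 (18.5%), by 12 h 39 (22.4%) and by 18 h 41 (26.7%). In BEAS-2B 3 had fallen at 2 h (0.824% of all genes), 31 at 4 h (8.02%), 57 at 6 h (17.7%), 41 at 12 h (23%) and 49 at 18 h (27.7%). Members that had risen numbered 1 at 4 h, 2 at 12 h and 4 at 18 h in HCT116, and 3 at 12 h and 4 at 18 h in BEAS-2B, where 4.67%, 12.5% and 15.4% and then 13.8% and 15.5% of all genes rose. Leaving out a single copper array of 4 h lowered the number called at that time to 8 in HCT116 (replicate 2) and to 16 in BEAS-2B (replicate 1). Leaving out one or the other copper array of 2 h, 0 members passed at 2 h in BEAS-2B. At 2, 4, 12 and 18 h the untreated side is 1 array and at 6 h it is 2, so the counts differ in precision. The lowest effect of the 5 times came at 6 h for 24 members in HCT116 and 20 in BEAS-2B, and at 18 h for 31 and 29. With arrays set to a common median the members called numbered 0 at 4 h, 21 at 6 h, 15 at 12 h and 17 at 18 h in HCT116, and 0 at 2 h, 2 at 4 h, 14 at 6 h and 29 at both 12 and 18 h in BEAS-2B.

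**Figure D3:**
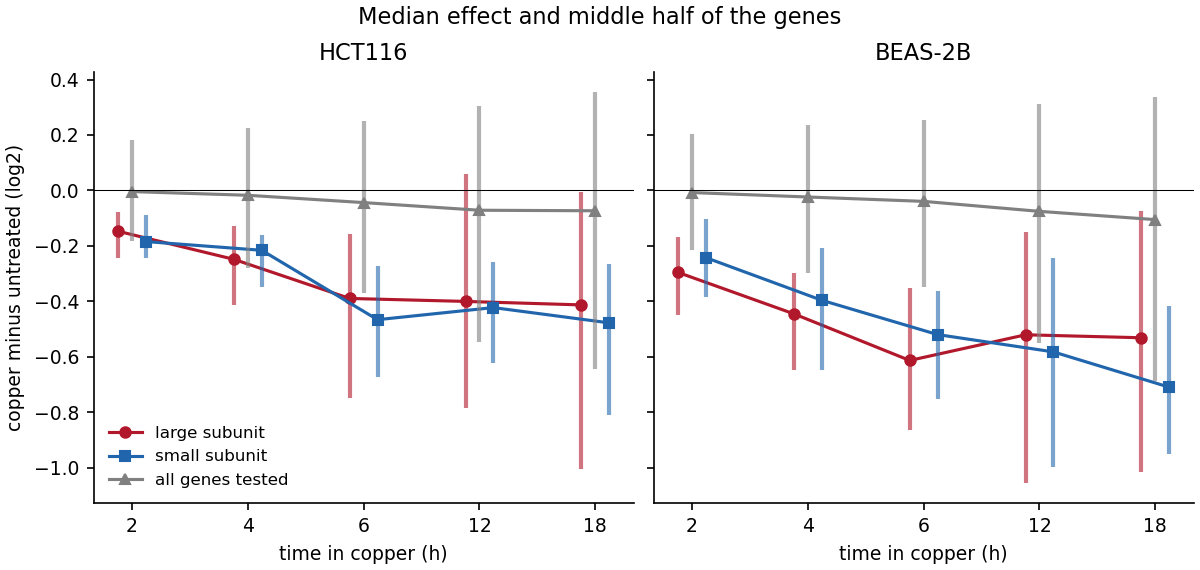
Median copper effect (log2, points) and quartiles of the genes (bars, lower to upper) at each time for large subunit, small subunit and all genes tested, HCT116 on the left. Both subunits lie below all genes at every time, and the small subunit median of BEAS-2B is lowest at 18 h, at -0.71.

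At 18 h the subunit medians were -0.41 (large) and -0.48 (small) in HCT116, and -0.53 and -0.71 in BEAS-2B. At 6 h they were -0.39 and -0.47 in HCT116, and -0.61 and -0.52 in BEAS-2B. Over 12 and 18 h 26 large subunit genes fell and 6 rose in HCT116, against 20 and 0 of the small subunit, where 30.4% of all genes fell and 17.8% rose. In BEAS-2B 30 large subunit genes fell and 4 rose, against 24 and 1 of the small subunit, where 31.3% and 18.2% of all genes did. These shares are a description, and the difference between subunits was not tested as a list.

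The mean of the large minus the mean of the small subunit genes on single arrays moved late. In HCT116 it was 0.09 to 0.19 on the 4 copper arrays of 12 and 18 h and -0.11 to 0.07 on those of 2 to 6 h, against -0.13 to 0.03 on untreated arrays. The untreated HCT116 arrays also moved up with time in culture. They lay at -0.13 to -0.04 at 0 to 6 h, at -0.02 at 12 h and at 0.03 at 18 h. In BEAS-2B it was 0.09 to 0.21 late and -0.04 to 0.06 early with copper, against 0.00 to 0.05 untreated. The late copper arrays lay above all untreated arrays in both lines. Without MRPS26 they overlapped the untreated arrays, at 0.01 to 0.09 against -0.12 to 0.03 in HCT116 and at 0.04 to 0.15 against 0.01 to 0.06 in BEAS-2B. MRPS30 and MRPS18A were also counted in the large subunit, to which their proteins belong, with MRPS26 kept in the small subunit. The late copper arrays then lay above all untreated arrays. This change and the removal of MRPS26 were not combined. The share of probes detected was also lower on the late copper arrays, as given above, and its part in this difference was not tested.

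**Figure D4:**
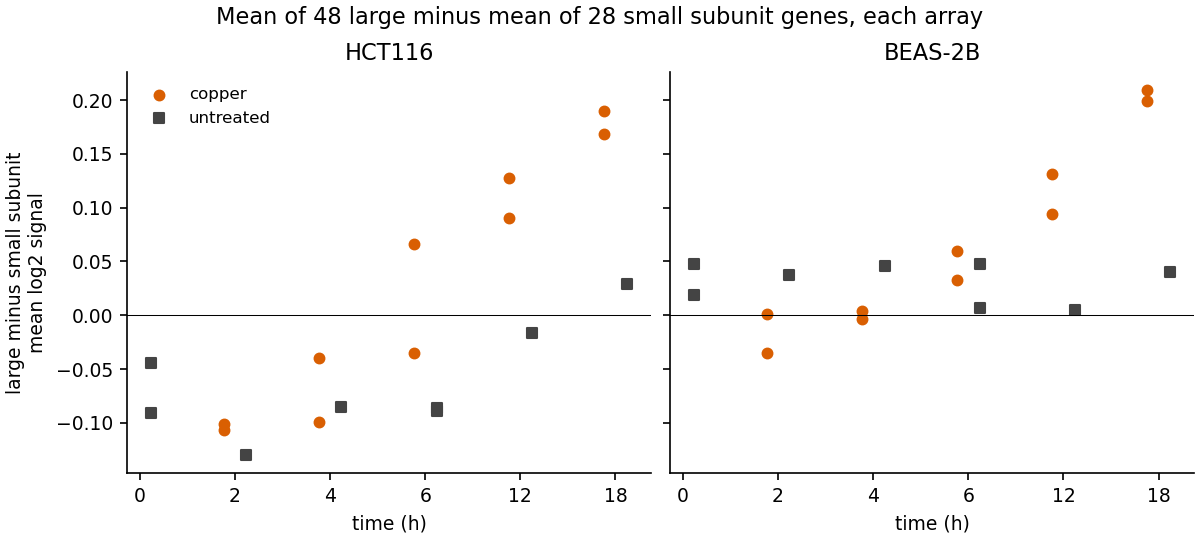
Mean log2 signal of 48 large subunit genes minus that of 28 small subunit genes on each array, by time, HCT116 on the left, with copper arrays as orange circles and untreated arrays as dark squares. The copper arrays of 12 and 18 h stand above all untreated arrays of their line.

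MRPL47 (Entrez 57129, chromosome 3), the counterpart of bacterial L29, went the other way. In HCT116 its copper arrays read 8.58 and 8.38 at 2 h, 9.03 and 8.91 at 4 h, 9.02 and 9.19 at 6 h, 9.81 and 9.91 at 12 h, and 10.14 and 10.22 at 18 h, against 8.29 to 8.91 (median 8.71) untreated. In BEAS-2B they read 7.70 and 7.69 at 2 h, 8.13 and 7.57 at 4 h, 8.07 and 8.13 at 6 h, 8.93 and 8.85 at 12 h, and 9.02 and 9.25 at 18 h, against 7.62 to 7.93 (median 7.82) untreated. From 6 h on all copper arrays of both lines lay above all untreated arrays. The average effect was 0.70 ± 0.08 in HCT116 (adjusted p = 5.4e-07) and 0.50 ± 0.08 in BEAS-2B (adjusted p = 2.7e-05), and over 12 and 18 h it was 1.19 ± 0.13 and 1.12 ± 0.13. A second, dimmer probe averaged 0.73 and 0.22.

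MRPL10 and MRPL28, counterparts of bacterial L10, at the base of the stalk, and of L28, also rose late in both lines. MRPL10 was higher by 0.47 ± 0.13 in HCT116 (adjusted p = 0.0068) and by 0.68 ± 0.13 in BEAS-2B (adjusted p = 0.00026) over 12 and 18 h. In BEAS-2B it had first fallen, by 0.60 at 4 h (adjusted p = 0.038) and 0.56 at 6 h (adjusted p = 0.0083). MRPL28 was higher by 0.49 ± 0.18 (adjusted p = 0.035) and 0.71 ± 0.18 (adjusted p = 0.0030). In BEAS-2B a MRPL10 copper array of 12 h, at 8.05, lay within the untreated range of 7.56 to 8.17. The MRPL10 untreated arrays of 12 and 18 h averaged 7.67 there, against 7.96 at 0 to 6 h. A second, dim MRPL10 probe (mean level 4.97) averaged -0.02 in HCT116 and -0.10 in BEAS-2B. MRPL48, MRPL30 and MRPL42 rose late in HCT116, by 0.68, 0.58 and 0.38. In BEAS-2B their late effects were 0.19, -0.0028 and -0.21 and did not pass. For MRPL30 there the late value is the mean of -0.40 at 12 h and 0.39 at 18 h, against single untreated arrays at 8.40 and 7.91. MRPL9 and MRPS28 rose late in BEAS-2B, by 0.36 and 0.45, while in HCT116 MRPL9 was at 0.15 and did not pass, and MRPS28 fell by 0.67. The late difference between the lines was -1.11 for MRPS28.

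Late and early effects differed for many members. Over 12 and 18 h minus 2 and 4 h, 23 members were lower late and 6 higher in HCT116 (21.2% and 11.7% of all genes), and 27 lower and 7 higher in BEAS-2B (21.3% and 12% of all genes). With arrays set to a common median these counts were 4 and 2 in HCT116 and 8 and 1 in BEAS-2B. MRPS26 differed most in HCT116, at -2.39 ± 0.15 (adjusted p = 2.8e-09), and in BEAS-2B its difference was -1.58 ± 0.15 (adjusted p = 4.0e-07). The effect was larger early than late in BEAS-2B for MRPL50, a mitochondria-only protein, whose copper arrays read 8.89 and 9.06 at 4 h, 9.00 and 8.91 at 6 h, and 9.48 and 9.51 at 18 h, against 9.58 to 10.05 (median 9.76) untreated. All 10 copper arrays lay below all 8 untreated arrays. Its effect was -1.07 at 4 h (adjusted p = 0.00028) and -0.09 at 18 h (adjusted p = 0.74), where the 1 untreated array, at 9.58, was the lowest of the 8, and the late minus early difference was 0.60 ± 0.17 (adjusted p = 0.012), or 0.55 with a common median (adjusted p = 0.36). MRPL13 and MRPS18C, counterparts of bacterial L13 and S18, also had higher late than early effects there, with differences of 0.52 ± 0.14 and 0.43 ± 0.15.

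Of the 76 genes 48 (63.2%) fell in both lines, against 20.3% of all genes: 48 of the 50 that fell in HCT116 and of the 63 that fell in BEAS-2B. Another 15 fell in BEAS-2B while not passing in HCT116. MRPS9 and MRPS28 passed as falls in HCT116 and not in BEAS-2B, and 8 members passed in neither. Across the 76 genes the 2 averages had a Pearson r of 0.863 and a Spearman rho of 0.789, as a description over genes measured on shared arrays. Over all 14678 genes r was 0.699.

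**Figure D5:**
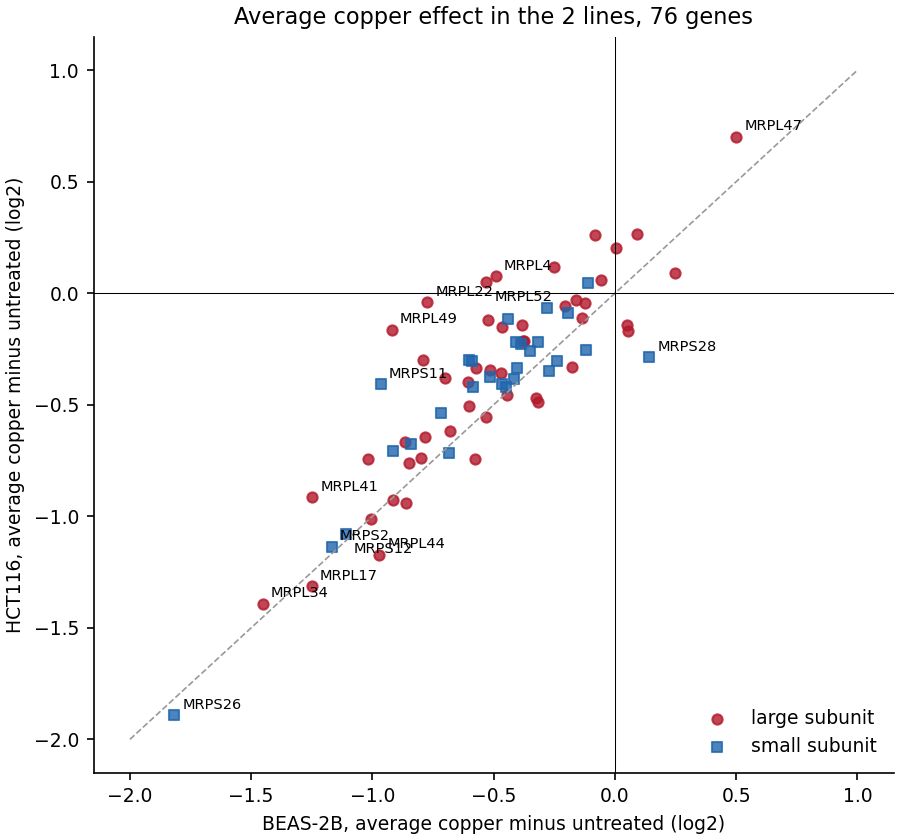
Average copper effect (log2) of the 76 genes in HCT116 (vertical axis) against BEAS-2B (horizontal axis), large subunit as red circles and small subunit as blue squares, with a dashed line of equal effect. Most genes lie near the line, MRPL49, MRPL22 and MRPS11 lie above it and MRPS28 below it.

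A test of the difference of the copper effects, HCT116 minus BEAS-2B, was passed by 14 members, 13 higher and 1 lower, where 12.8% of all genes were higher and 13.6% lower. MRPL49, a mitochondria-only protein (Entrez 740, chromosome 11), differed most. Its copper arrays ran from 8.02 to 8.39 (median 8.22) in HCT116, overlapping the untreated 8.24 to 8.52 (median 8.42). In BEAS-2B they ran from 5.59 to 7.31 (median 6.99), all below the untreated 7.59 to 7.86 (median 7.71). The effects were -0.16 ± 0.08 in HCT116 (adjusted p = 0.11) and -0.92 ± 0.08 in BEAS-2B (adjusted p = 1.8e-08), and they differed by 0.76 ± 0.11 (adjusted p = 6.1e-05).

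MRPL22 (Entrez 29093, chromosome 5), the counterpart of bacterial L22 in the wall of the exit tunnel, also differed. Copper arrays ran from 10.69 to 11.05 (median 10.91) in HCT116, within the untreated 10.70 to 11.22 (median 11.04) but for the lowest array. In BEAS-2B they ran from 10.05 to 11.39 (median 11.03), below the untreated 11.41 to 11.79 (median 11.58). The difference was 0.73 ± 0.10 (adjusted p = 1.7e-05), and a second probe gave -0.02 and -0.76 beside -0.04 and -0.77. Its lowest untreated arrays in HCT116 were those of 12 h, at 10.70, and of 18 h, at 10.82.

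MRPS11, the counterpart of bacterial S11, fell in both lines, by 0.41 ± 0.06 in HCT116 and 0.97 ± 0.06 in BEAS-2B, and the difference was 0.56 ± 0.08 (adjusted p = 6.6e-05). Its start lies 320 bases from that of MRPL46, on the opposite strand, and MRPL46 fell by 1.01 in both lines. MRPL52 and MRPL4 averaged 0.05 and 0.08 in HCT116, neither past the test, and fell by 0.53 and 0.49 in BEAS-2B, with differences of 0.58 ± 0.13 (adjusted p = 0.0019) and 0.57 ± 0.13 (adjusted p = 0.0027). MRPS28 was lower in HCT116, at -0.29 ± 0.07 against 0.14 ± 0.07, a difference of -0.43 ± 0.10 (adjusted p = 0.0040). Setting arrays to a common median left 2 members past the test, MRPL49 and MRPL22, at adjusted p of 0.027 and 0.037. Over 12 and 18 h alone 11 members were higher and 6 lower in HCT116 (14.8% and 14.6% of all genes), led by MRPL22 at 1.47 and MRPL49 at 1.40. Without the arrays of 4 h 8 members were higher in HCT116, in place of 13.

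Untreated cells of the 2 lines also differed. Of the members 53 were higher and 10 lower in HCT116 than in BEAS-2B, where 29.8% and 29.7% of all genes were. With a common median 43 were higher and 6 lower. MRPS30, whose protein sits in the large subunit despite its name, differed most. Untreated arrays read 11.19 to 11.42 (median 11.27) in HCT116 and 8.40 to 8.82 (median 8.60) in BEAS-2B, a difference of 2.72 ± 0.05 (adjusted p = 5.1e-19). MRPL1, MRPL2 and MRPL34, counterparts of bacterial L1, L2 and L34, were higher in HCT116 by 2.03, 1.63 and 1.37. MRPL28, MRPL33 and MRPL22 were lower there, with differences of -0.83, -0.83 and -0.62. With copper MRPS30 fell by 0.22 ± 0.05 in HCT116 (adjusted p = 0.0011) and by 0.41 ± 0.05 in BEAS-2B (adjusted p = 1.3e-06). MRPS18A, the other large subunit protein with a small subunit name, was at 0.05 ± 0.09 and -0.11 ± 0.09 and did not pass in either line (adjusted p = 0.71 and 0.33), and the HCT116 value was -0.09 with a common median.

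MRPS14, the counterpart of bacterial S14, was the dimmest member and the 1 not detected on every array. It was detected on 8 of 10 copper arrays in HCT116 and 7 of 10 in BEAS-2B, and on all untreated arrays. Its effect was -0.42 ± 0.18 in HCT116 (adjusted p = 0.070) and -0.59 ± 0.18 in BEAS-2B (adjusted p = 0.012). Of the 24 members with a further passing probe, some disagreed: of 30 such probes 7 in HCT116 and 4 in BEAS-2B had the other sign. MRPS21 averaged -0.22 in HCT116 and its second probe 0.30, and MRPL42 averaged -0.25 in BEAS-2B and its second probe 0.21.

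Some untreated references moved in culture. Untreated HCT116 arrays of 12 and 18 h differed from those of 0 to 6 h in 18 members, 12 higher and 6 lower (7.96% and 7.2% of all genes). MRPL12 was higher by 0.78 ± 0.12 (adjusted p = 0.00024) and MRPL58 by 0.67 ± 0.13 (adjusted p = 0.0020). Lower were MRPL57, at -0.49 ± 0.15 (adjusted p = 0.031), MRPL46, at -0.45 ± 0.11 (adjusted p = 0.010), and MRPS26, at -0.38 ± 0.10 (adjusted p = 0.016). These arrays are the untreated side of the late effects: the MRPL12 copper arrays of 18 h, at 9.05 and 8.91, stand against 10.79 at 18 h and 10.02 and 9.80 at 0 h. In BEAS-2B limma called 0 of 76 members, where 1.45% of all genes were higher and 1.91% lower, and at an unadjusted p below 0.05 3 were higher and 7 lower. Leaving out any 1 of the untreated HCT116 arrays of 0 or 6 h left 3 members lower, in place of 6. With a common median 0 were called in HCT116.

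Genes that serve the mitochondrial ribosome were set beside its proteins. Of 25 assembly factors 19 fell in HCT116 and 21 in BEAS-2B, with median effects of -0.58 and -0.63. Over all genes tested 29.1% fell and 17.3% rose in HCT116, and 30.3% and 18.5% in BEAS-2B. MALSU1, which keeps immature large subunits from joining, averaged -1.54 ± 0.05 in HCT116 and -1.32 ± 0.05 in BEAS-2B. MTERF3, named as a termination factor and required for mitochondrial ribosome biogenesis in mice, averaged -1.81 ± 0.07 and -1.48 ± 0.07. TFB1M, a methyltransferase of the small ribosomal RNA, averaged -1.14 ± 0.06 and -1.05 ± 0.06. GTPBP10, a GTPase of the large subunit, was the 1 factor that rose, in BEAS-2B by 0.51 ± 0.16 (adjusted p = 0.012), and in HCT116 it averaged 0.06 ± 0.16. It was detected on 3 of the 6 matched untreated BEAS-2B arrays.

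Of 14 translation factors 8 fell and 2 rose in HCT116, and 7 fell and 1 rose in BEAS-2B. The shares of all genes were 29.1% fallen and 17.3% risen in HCT116, and 30.3% and 18.5% in BEAS-2B. MTFMT, which formylates the initiator transfer RNA, averaged -1.52 ± 0.09 and -1.56 ± 0.09, and TACO1, an activator of COX1 translation, -1.33 ± 0.07 and -1.35 ± 0.07. TUFM, the elongation factor, averaged 0.04 ± 0.05 and 0.03 ± 0.05 and did not pass (adjusted p = 0.63 and 0.69), and with a common median the values were -0.06 and -0.02. Of 17 genes for mitochondrial transcription and RNA processing 10 fell in each line, and 2 rose in HCT116 and 4 in BEAS-2B. POLRMT, the RNA polymerase, averaged -0.87 ± 0.11 and -0.78 ± 0.11, while SUPV3L1, an RNA helicase of mitochondrial RNA decay, rose by 0.66 ± 0.06 and 1.04 ± 0.06. TFAM, which packs mitochondrial DNA, averaged 0.11 ± 0.05 in HCT116 (adjusted p = 0.090) and rose by 0.31 ± 0.05 in BEAS-2B.

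Of 5 genes with other names that were listed with the ribosome, DAP3, a GTPase of the small subunit, rose. Its effect was 0.30 ± 0.06 in HCT116 and 0.42 ± 0.06 in BEAS-2B. CHCHD1, another small subunit protein, fell by 0.72 ± 0.08 and 0.56 ± 0.08. GADD45GIP1, of the large subunit, averaged 0.20 ± 0.11 and -0.27 ± 0.11 and passed in neither (adjusted p = 0.17 and 0.057). PTCD3 was detected on at most 1 of 10 copper arrays per line. OXA1L, the insertase that receives new chains, averaged -0.07 ± 0.09 in HCT116 and fell by 0.63 ± 0.09 in BEAS-2B. KGD4, once named MRPS36 and not 1 of these 5, averaged 0.19 ± 0.08 in HCT116 (adjusted p = 0.072). In BEAS-2B KGD4 rose by 0.30 ± 0.08 (adjusted p = 0.0057).

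Among 10 regulators of such genes 4 fell and 3 rose in HCT116, and 1 fell and 3 rose in BEAS-2B. Beside them 29.1% of all genes fell and 17.3% rose in HCT116, and 30.3% and 18.5% in BEAS-2B. MYC fell by 2.00 ± 0.07 in HCT116, and in BEAS-2B it averaged 0.10 ± 0.07 (adjusted p = 0.29). GABPB1, a subunit of GABP, rose by 1.05 ± 0.08 and 0.60 ± 0.08. Its partner GABPA rose by 0.95 ± 0.11 in HCT116 and averaged 0.04 ± 0.11 in BEAS-2B (adjusted p = 0.82). NRF1 was detected on 3 of 10 copper arrays in HCT116 and 2 of 10 in BEAS-2B. It is 1 of the falls counted in HCT116, at -0.33 ± 0.12 (adjusted p = 0.033).

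Ribosomal proteins of the cytosol gave another picture. Of 72 measured, 1 fell and 7 rose in HCT116 and 12 fell and 7 rose in BEAS-2B, with medians of -0.01 and -0.05. For all genes the shares were 29.1% fallen and 17.3% risen in HCT116, and 30.3% and 18.5% in BEAS-2B. Of 35 subunits of respiratory complex I, 15 fell and 2 rose in HCT116, with a median of -0.12, and 24 fell and 0 rose in BEAS-2B, with a median of -0.37. These lists were not tested against the 76 genes as sets.

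Of the members 12 have a tested neighbour that starts nearby on the opposite strand and runs the other way, with 49 to 320 bases between the starts. MRPL46 and MRPS11 are each other's neighbour. These neighbours fell in 6 cases in HCT116 and 8 in BEAS-2B, and rose in 3 and 2. The falls include MRPL46 and MRPS11 themselves in both lines. Among all genes 29.1% and 30.3% fell, and 17.3% and 18.5% rose. MRPL57 averaged -0.17 in HCT116 and 0.06 in BEAS-2B, passing in neither, and its neighbour SKA3, a mitosis gene 106 bases away, averaged -0.98 and -1.43. MRPL49, at -0.16 and -0.92, faces FAU at 49 bases, which encodes a cytosolic ribosomal protein and averaged -0.06 and -0.20. MRPS12, at -1.08 and -1.11, faces SARS2, the mitochondrial seryl transfer RNA synthetase, at 181 bases, which averaged -0.17 and -0.50. These pairs were chosen after their values were seen.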

How the data were processed

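RNA was hybridised to 36 Illumina bead arrays. Per the labels' protocols it was isolated with an RNeasy Plus kit and labelled with biotin. The submitters' processing notes name BeadStudio without a version. For each of 43960 probes the authors deposited a signal, on a log2 scale by its values, and a detection p-value, in a table that its header calls non-normalized, although array means lie between 7.31 and 7.33, and a quantile-normalized table.

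Signals were taken off the log scale, then corrected for background by the detection p-values and quantile normalized with neqc (offset 16) in limma 3.58.1 under R 4.3.3. Of 29511 probes with 1 gene name, 19977 were detected (p below 0.01) on at least 2 arrays, and the probe of highest mean signal was kept for each of 14678 genes. A limma model with a coefficient for each of 22 groups (residual df 14, median residual SD 0.21) gave all effects, with Benjamini-Hochberg adjustment over all genes, and was tested on simulated data. The number of arrays limits the precision. Same-numbered arrays were checked for shared deviations: the median correlation was -0.00054 in HCT116 and 0.0018 in BEAS-2B over 21 pairs each, so the numbers do not pair arrays.

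Members, gene lists and tests were chosen with earlier results of these data known. Genes named are the 8 largest falls and 8 largest rises in each line's average (same direction at each time), up to 5 per direction in the other comparisons, members not detected throughout, genes named for their role, and up to 4 genes per line of each related list. Named beyond this, after their values were seen, are the late rises, the smaller line differences, MRPL36, MRPS9, MRPS21, POLRMT, GTPBP10 and the neighbouring genes. Alternatives were other background, scaling, filter and probe settings, all untreated groups as reference, the replicate block, and leaving out arrays or times.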

Additional observations from a re-analysis of the deposited data

Results flagged for a closer look

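For 14 of 76 members a limma test of the difference itself found the copper effects of the 2 lines, HCT116 minus BEAS-2B, unequal. In the same test 12.8% of all genes were higher and 13.6% lower. The difference was 0.76 for MRPL49, 0.73 for MRPL22, 0.58 for MRPL52, 0.57 for MRPL4, 0.56 for MRPS11, 0.49 for MRPL33 and 0.40 for MRPL50. It was 0.37 for MRPL42, 0.34 for MRPL30, 0.32 for MRPS22 and MRPL37, 0.31 for MRPL23, 0.27 for MRPL43 and -0.43 for MRPS28. With arrays set to a common median MRPL49 (0.71, adjusted p = 0.027) and MRPL22 (0.65, adjusted p = 0.037) still passed, and the other 12 did not. The lines received different copper doses, so line and dose cannot be told apart.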

How the results depend on the processing

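The members that fell on average numbered 45 to 52 in HCT116 and 51 to 63 in BEAS-2B over all settings. Counts at single times and in the late minus early comparison depended on the scaling, whose cause was not tested. The time counts rest on 1 untreated array at 4 of the 5 times, and dim probes such as that of MRPS14 are limited by signal over background. A common median moved the median of all genes by -0.08 in HCT116 and -0.04 in BEAS-2B.

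With a common median in place of quantile normalization, rises in the HCT116 average numbered 1, late minus early gave 4 falls and 2 rises in HCT116 and 8 and 1 in BEAS-2B, the lines compared gave 2 higher and 0 lower, the untreated lines 6 lower, and untreated HCT116 culture 0 and 0. Members called were 0, 21, 15 and 17 at 4, 6, 12 and 18 h in HCT116 and 0, 2, 14, 29 and 29 at 2 to 18 h in BEAS-2B. HCT116 medians were -0.43 (large subunit) and -0.46 (small subunit). Values of the other sign, none past the test, were MRPS18A -0.087, KGD4 -0.030 (0.19 with quantile normalization), GADD45GIP1 -0.024 and TUFM -0.061 in HCT116, and TUFM -0.017, NRF1 0.013 and GABPA -0.088 in BEAS-2B.

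Without background correction, and likewise in the authors' quantile-normalized table, 2 members rose in the BEAS-2B average, 2 were lower in the lines compared, 1 fell in later untreated BEAS-2B culture and 10 were called at 2 h in BEAS-2B. The medians were -0.28 (small subunit, HCT116), -0.45 (large, BEAS-2B) and -0.38 (small, BEAS-2B). These 2 settings start from nearly the same signals, so they are not separate checks. The mean of a gene's probes gave -0.50 for the small subunit in BEAS-2B. With all untreated groups as reference, 2 rose in the BEAS-2B average, late minus early gave 17 rises in HCT116 and 13 in BEAS-2B, 2 were lower in the lines compared, and 3 and 34 were called at 2 and 4 h in HCT116 and 36 and 57 in BEAS-2B.

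Without the 2 h arrays, 2 rose in the BEAS-2B average, late minus early gave 12 falls and 0 rises in HCT116 and 14 falls in BEAS-2B, 3 fell in later untreated HCT116 culture, and medians were -0.37 (large, HCT116) and -0.50 (small, BEAS-2B). Without the 4 h arrays, late minus early gave 2 rises in BEAS-2B, the lines compared 8 higher and 2 lower, 1 was called at 2 h in BEAS-2B, and the small subunit median there was -0.49. Without the 6 h arrays, 2 rose in the BEAS-2B average, 3 fell and 7 rose in later untreated HCT116 culture, 0 were called at 2 h in BEAS-2B, the large subunit median there was -0.46, and TUFM was at -0.022. Without the 12 h arrays, 2 fell and 1 rose in later untreated HCT116 culture, the large subunit median was -0.30 in HCT116, MRPS18A was at -0.019 in HCT116 and NRF1 at 0.014 in BEAS-2B. Without the 18 h arrays, 1 rose in the HCT116 average, late minus early gave 13 falls and 1 rise in HCT116 and 14 and 2 in BEAS-2B, 0 were lower in the lines compared and 1 fell in later untreated HCT116 culture. HCT116 medians were then -0.27 (large) and -0.29 (small), MRPS18A was at -0.039 in HCT116, and NRF1 and GABPA at 0.055 and -0.14 in BEAS-2B.

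Leaving out 1 array at a time gave 1 to 2 rises in the BEAS-2B average, 0 to 3 called at 2 h and 16 to 31 at 4 h in BEAS-2B, 8 to 15 at 4 h in HCT116, and 3 to 7 falls in later untreated HCT116 culture. With the replicate number as a block, 2 members fell in later untreated HCT116 culture in place of 6, and no other count moved by more than 1.5 times.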
